A study of Mus musculus with 4 samples.

Results

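Heat shock proteins and their cochaperones were followed in 4 RNA sequencing libraries of C2C12 myotubes, the multinucleate muscle cells formed by the C2C12 mouse myoblast line. The set was a fixed list of 36 genes, taken by gene symbol from the 45777 genes of the joint table, and all 36 were found. The groups, with 1 library each, were myotubes given clenbuterol, a control for clenbuterol, myotubes titled EPS and a control titled for EPS. Clenbuterol is a β2-adrenergic agonist, and EPS is taken to mean electrical pulse stimulation, although no label expands it. All cultures grew in DMEM with 2% horse serum. The treatment field of all 4 records, controls included, gives 30 ng/ml clenbuterol, so groups follow the titles. The labels state no genotype change, pulse settings or treatment times, and C2C12 is a single cell line. With 1 library per group no value has a replicate, no test between conditions was possible, and differences are described by size.

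Titles and data names disagree within the EPS pair: the data of the record with the title EPS are named as its control, and the other way round. The groups below go by title. Should the data names hold instead, each difference between these libraries changes sign.

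Totals of estimated read counts ran from 32640884 to 35597074 per library, and between 13412 and 13489 genes reached 1 TPM (transcripts in proportion to all, corrected for gene length). All 10 myotube markers examined were above 1 TPM in every library. Their summed level was 30298 TPM with clenbuterol and 30157 TPM in its control, and 20622 TPM in the library titled EPS against 24646 TPM in the library titled EPS control. Of 7 markers of undifferentiated myoblasts, between 5 and 7 reached 1 TPM, with sums of 239 TPM with clenbuterol, 147 TPM in its control, 135 TPM in the library titled EPS and 105 TPM in the library titled EPS control. The gap within the clenbuterol pair came mainly from Id3 (115.9 TPM with clenbuterol and 35.9 TPM in its control) and Hey1 (19.4 TPM with clenbuterol and 3.29 TPM in its control). Pax7 was also higher, though near 1 TPM (1.39 TPM with clenbuterol and 0.787 TPM in its control). Myf5, Ccnd1 and Mki67 were at lower levels with clenbuterol, and Id1 differed by 0.03 on the log2 scale. Immune markers (3 genes) summed to at most 4.94 TPM and endothelial markers (2 genes) to at most 0.197 TPM. Of 4 fibroblast markers 2 reached 1 TPM, and their sum was between 214 and 235 TPM.

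As background, heat shock proteins are chaperones that hold, refold or hand over proteins that have lost their shape. Hsp70 proteins bind exposed stretches of a client under the control of J-proteins, which stimulate ATP hydrolysis, and of Hsp110 and BAG proteins, which release the nucleotide. Hsp90 with its cochaperones matures kinases and steroid receptors, small heat shock proteins hold unfolded clients without ATP, and the mitochondrial chaperonin folds imported proteins in a closed chamber. In stressed cells the transcription factor HSF1 forms trimers and binds heat shock elements, which are repeats of the unit NGAAN in alternating orientation. In striated muscle, small heat shock proteins and the BAG3 machinery guard the Z-disc and its filamins.

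The levels of the 36 genes spanned more than 2 orders of magnitude in TPM within each library. Summed, they made up 1.23% of all TPM with clenbuterol and 1.19% in its control, and 0.928% in the library titled EPS against 1.12% in the library titled EPS control. The 5 most abundant genes, Hsp90ab1, Hspa8, Cryab, Hspb1 and Hsp90aa1, held 67.8% of that sum with clenbuterol, 67.7% in its control, 62.1% in the library titled EPS against 63.6% in its control by title. Hspb3 had the lowest mean level, 12.7 TPM over the 4 libraries, and Hsp90ab1 the highest, 2215 TPM. The stress-inducible Hsp70 genes Hspa1a and Hspa1b stood near the bottom of the order, at means of 17.0 and 37.7 TPM, while the constitutive Hspa8 averaged 1722 TPM. Hsf1 itself averaged 50.4 TPM. All 36 genes exceeded 1 TPM in every library, so none was lost to the filter on low values.

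**Figure D1:**
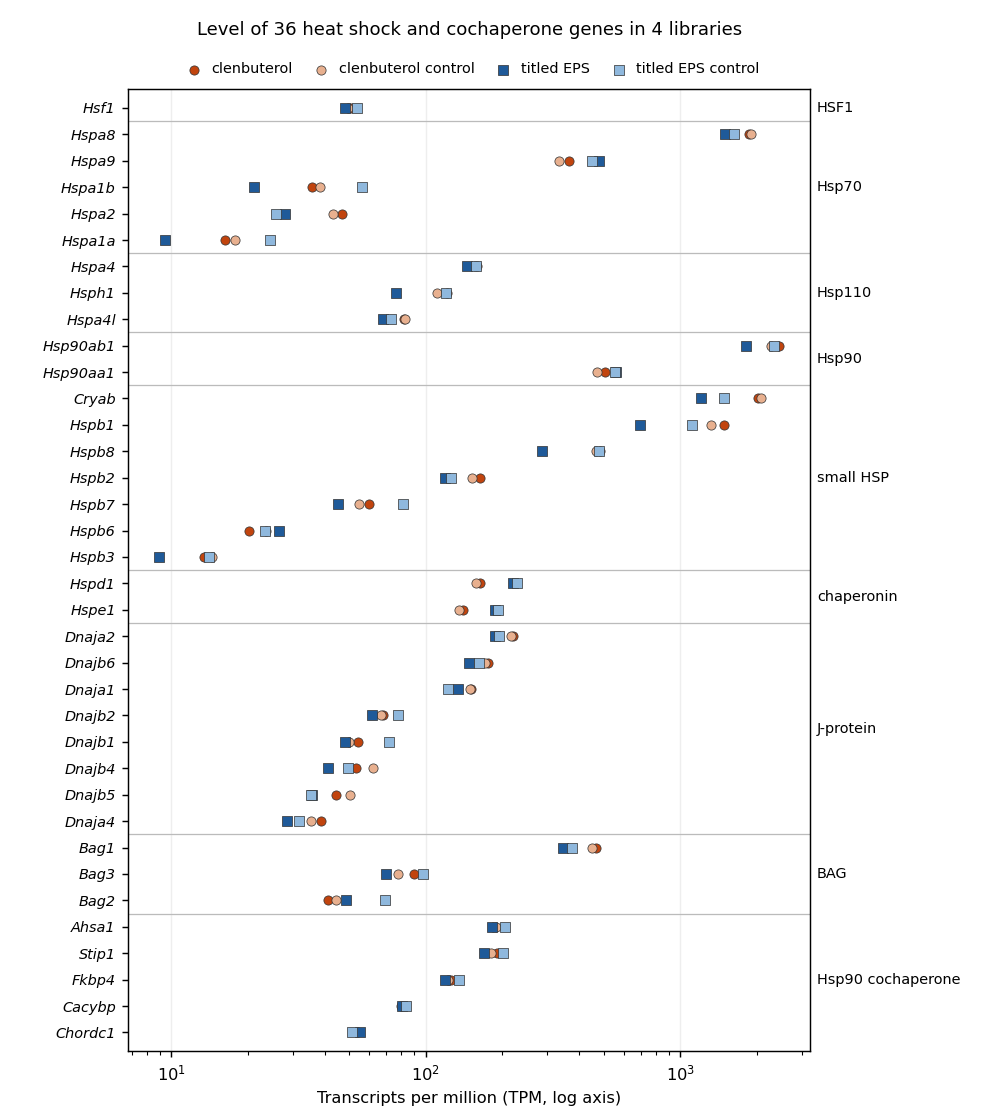
Level of each of the 36 genes in TPM (log axis) in the 4 libraries, grouped by role and ordered by mean level within a role. Circles are the clenbuterol pair and squares the EPS pair, and each point is 1 library. Hspa1a and Hspa1b show the widest spread, with the library titled EPS lowest and the library titled EPS control highest.

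Promoter sequence was available for 29 of the 36 genes in RefSeq windows of 300 bases (250 before the start and 50 after, build GRCm38.p6). Hsf1, Hspa8, Hspa9, Hsp90aa1, Hsp90ab1, Hspb2 and Cryab were not in the table. The heat shock element was searched on both strands as 2 units, TTCNNGAA or GAANNTTC, each of which is its own reverse complement. It was also searched as 3 units, that is TTCNNGAA followed at once by NNTTC, or GAANNTTC followed at once by NNGAA, which are reverse complements of each other. The 3-unit pattern contains the 2-unit patterns, so every 3-unit match is also counted among the 2-unit matches. A 3-unit match was present in 5 of the 29 genes (17.2%), against 0.662% of all 27025 genes in the table. A 2-unit match was present in 16 of 29 (55.2%), against 17.0% of all genes. The 5 genes with 3 units were Hsph1, Hspd1, Hspe1, Dnajb6 and Chordc1, of which Hspd1 and Hspe1 hold the same bases and are not independent. A gene can have several windows, and the 29 genes had 41, against 32851 windows for all 27025 genes. By window, 7 of 41 held a 3-unit match and 18 of 41 a 2-unit match, beside 0.603% and 15.1% of all windows. The windows of Hsph1 overlap and hold the same 3-unit bases, and so do those of Dnajb6. Windows are therefore not independent sites.

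Stretches from 150 bases before to 30 after the start are printed for 7 genes on the GRCm38.p6 build, 5′ to 3′. The first 5 belong to genes with the lowest ratios in the EPS pair described below that carry a match, and Hspe1 and Chordc1 are set beside them because they carry 3-unit matches and differed little. Capitals mark the 3-unit match where there is one (overlapping matches merged) and otherwise the 2-unit match.
Hspa1a, chr17:34972127-34972306, minus strand: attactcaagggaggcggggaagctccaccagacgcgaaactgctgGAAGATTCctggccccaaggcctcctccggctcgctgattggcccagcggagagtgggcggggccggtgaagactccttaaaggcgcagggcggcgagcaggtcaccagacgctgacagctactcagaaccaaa
Hspa1b, chr17:34959209-34959388, minus strand: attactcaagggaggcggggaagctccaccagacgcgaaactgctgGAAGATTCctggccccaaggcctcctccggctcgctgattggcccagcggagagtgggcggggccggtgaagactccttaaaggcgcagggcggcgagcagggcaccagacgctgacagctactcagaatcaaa
Hspb1, chr5:135887769-135887948, plus strand: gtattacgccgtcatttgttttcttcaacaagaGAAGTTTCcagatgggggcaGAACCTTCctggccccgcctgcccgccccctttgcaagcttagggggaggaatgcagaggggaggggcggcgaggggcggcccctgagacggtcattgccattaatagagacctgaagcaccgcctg
Hspb8, chr5:116422835-116423014, minus strand: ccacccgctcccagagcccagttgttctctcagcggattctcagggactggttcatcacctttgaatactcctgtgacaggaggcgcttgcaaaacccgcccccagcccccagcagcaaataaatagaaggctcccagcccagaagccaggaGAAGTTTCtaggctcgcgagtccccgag
Hsph1, chr5:149636286-149636465, minus strand: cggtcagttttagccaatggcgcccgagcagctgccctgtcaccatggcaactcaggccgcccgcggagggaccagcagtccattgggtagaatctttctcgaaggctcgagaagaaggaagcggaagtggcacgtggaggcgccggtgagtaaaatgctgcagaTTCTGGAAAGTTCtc
Hspe1, chr1:55087998-55088177, plus strand: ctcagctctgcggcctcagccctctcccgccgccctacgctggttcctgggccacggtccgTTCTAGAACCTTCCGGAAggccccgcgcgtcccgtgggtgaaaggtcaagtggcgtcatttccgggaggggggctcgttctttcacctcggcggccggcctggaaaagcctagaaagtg
Chordc1, chr9:18292117-18292296, plus strand: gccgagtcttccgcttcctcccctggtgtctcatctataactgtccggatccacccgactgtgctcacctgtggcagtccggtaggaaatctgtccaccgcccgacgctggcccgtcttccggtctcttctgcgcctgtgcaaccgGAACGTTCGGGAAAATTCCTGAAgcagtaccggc

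The Hspa1a and Hspa1b windows differed at 4 of 300 bases, and both held the same single 2-unit match from 104 to 97 bases before the start. Hspb1, which encodes the small heat shock protein Hsp25 of the mouse, had 2 such matches, from 117 to 110 and from 97 to 90 bases before the start. In Hspe1 the merged match holds 2 overlapping 3-unit matches, and the same bases lie in the second of 2 windows of Hspd1, since these genes are transcribed in opposite directions from a shared region. A match is a description of letters and not of a bound factor.

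**Figure D2:**
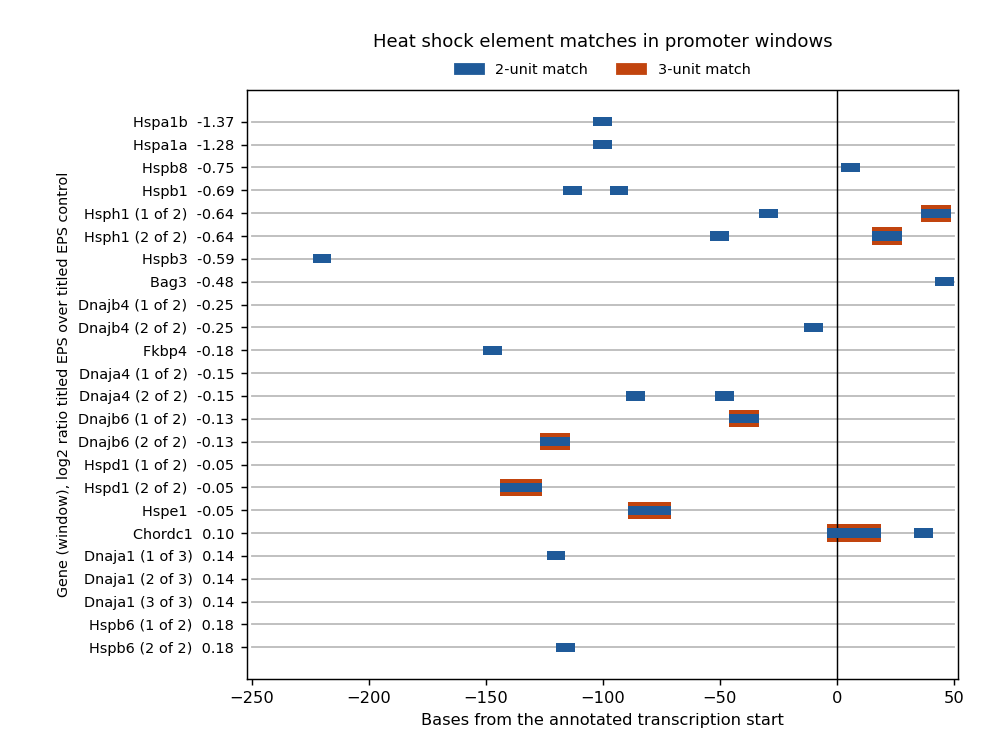
Positions of 2-unit (blue) and 3-unit (orange) heat shock element matches relative to the annotated transcription start, in every promoter window of the 16 genes with a match. Windows run down the page from the lowest to the highest log2 ratio of TPM plus 1, titled EPS over titled EPS control, which is printed beside the gene. The 5 genes with 3-unit matches have ratios between −0.64 and 0.10.

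The first question was whether chaperone transcripts differ in myotubes given clenbuterol. They differed little. Sizes are log2 ratios of TPM plus 1, and the smallest size counted was 0.32, a ratio of 5 to 4. None of the 36 genes was that much higher or lower, where 5.74% of all 13788 genes measured were higher and 6.53% lower by 0.32. Such shares, here and below, include genes down to 1 TPM and are not matched to the levels of the 36 genes. The median log2 ratio of the 36 genes was 0.04, with 24 above 0 and 12 below, beside a median of −0.01 over all genes, of which 46.4% were above 0. Ratios ran from −0.23 for Dnajb4 to 0.21 for Bag3.

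Folds in the following are ratios of CPM, the counts scaled by TMM library factors, with a 95% interval that covers counting error only. Bag3, which couples Hsp70 to the autophagy of damaged filamin under tension, had 90.1 TPM with clenbuterol and 77.8 TPM in its control. That made it 1.17-fold higher in CPM (1.12 to 1.23), the largest ratio of TPM plus 1 in the list. Hspb1 had 1489 TPM with clenbuterol and 1320 TPM in its control, and was 1.14-fold higher in CPM (1.12 to 1.17). These intervals exclude 1, but the spread between cultures is unknown and is not part of them.

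Both Hsp90 genes lay a little higher with clenbuterol. Hsp90ab1, the constitutive form, had 2447 TPM with clenbuterol and 2262 TPM in its control (1.10-fold in CPM, 1.09 to 1.11). Hsp90aa1, the inducible form, had 507 TPM with clenbuterol and 471 TPM in its control (1.09-fold in CPM, 1.07 to 1.11). Hspa9, the mitochondrial Hsp70 mortalin, had 365 TPM with clenbuterol and 334 TPM in its control (1.11-fold in CPM, 1.08 to 1.13). Hsph1, an Hsp110 nucleotide exchange factor, stood at the same log2 ratio as Hspa9, 0.13 (1.11-fold in CPM, 1.07 to 1.15). The J-protein gene Dnaja4 and the small heat shock protein gene Hspb7 both stood at 0.12, and Hspa2, an Hsp70 best known from the testis, at 0.11. Dnaja4 was 1.11-fold higher in CPM (1.03 to 1.19) and Hspb7 1.10-fold higher (1.04 to 1.17).

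At the low end were Dnajb4 and Dnajb5, J-proteins related to Dnajb1, and Hspb6, the small heat shock protein Hsp20. Dnajb4 had 53.1 TPM with clenbuterol and 62.3 TPM in its control, and was 1.13-fold lower in CPM (1.08 to 1.18). Hspb6 had 20.3 TPM with clenbuterol and 23.6 TPM in its control (log2 ratio −0.21, 1.15-fold lower in CPM), and its counting interval ended at 1. Dnajb5 stood at −0.18, and Bag2 at −0.09. The inducible pair Hspa1a and Hspa1b stood at −0.13 and −0.10, and both counting intervals held 1 (1.08-fold lower in CPM, 0.973 to 1.21, for Hspa1a and 1.06-fold lower, 0.987 to 1.14, for Hspa1b). Hsf1 differed by 0.04, with 50.7 TPM with clenbuterol and 49.3 TPM in its control (1.02-fold in CPM, 0.948 to 1.09). The 5 Hsp90 cochaperones lay between −0.04 for Ahsa1, which stimulates the Hsp90 ATPase, and 0.07 for Stip1, which bridges Hsp70 and Hsp90. Hspd1 and Hspe1, the chaperonin and its lid, lay at 0.06 and 0.05.

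The second question was whether chaperone transcripts differ under EPS. Going by the titles, the stress-inducible Hsp70 transcripts, 4 of 7 small heat shock protein transcripts and some cochaperone transcripts were lower in the library titled EPS, and no gene of the list was higher by 0.32. By a log2 ratio of 0.32, 12 of 36 genes were lower, beside 12.6% of all 13828 genes measured. By 1.5-fold 7 were lower, beside 4.24% of all genes, and by 2-fold 2 were lower, beside 1.14%. Those 2 are Hspa1a and Hspa1b, which are uncertain as separate genes, as described below. The genes higher by 0.32 were 0 of 36, beside 7.51% of all genes. The median log2 ratio was −0.15 with 29 of 36 genes below 0, beside −0.02 over all genes, of which 54.6% were below 0. With the data names in place of the titles, the same 12 genes would be the higher ones under EPS.

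**Figure D3:**
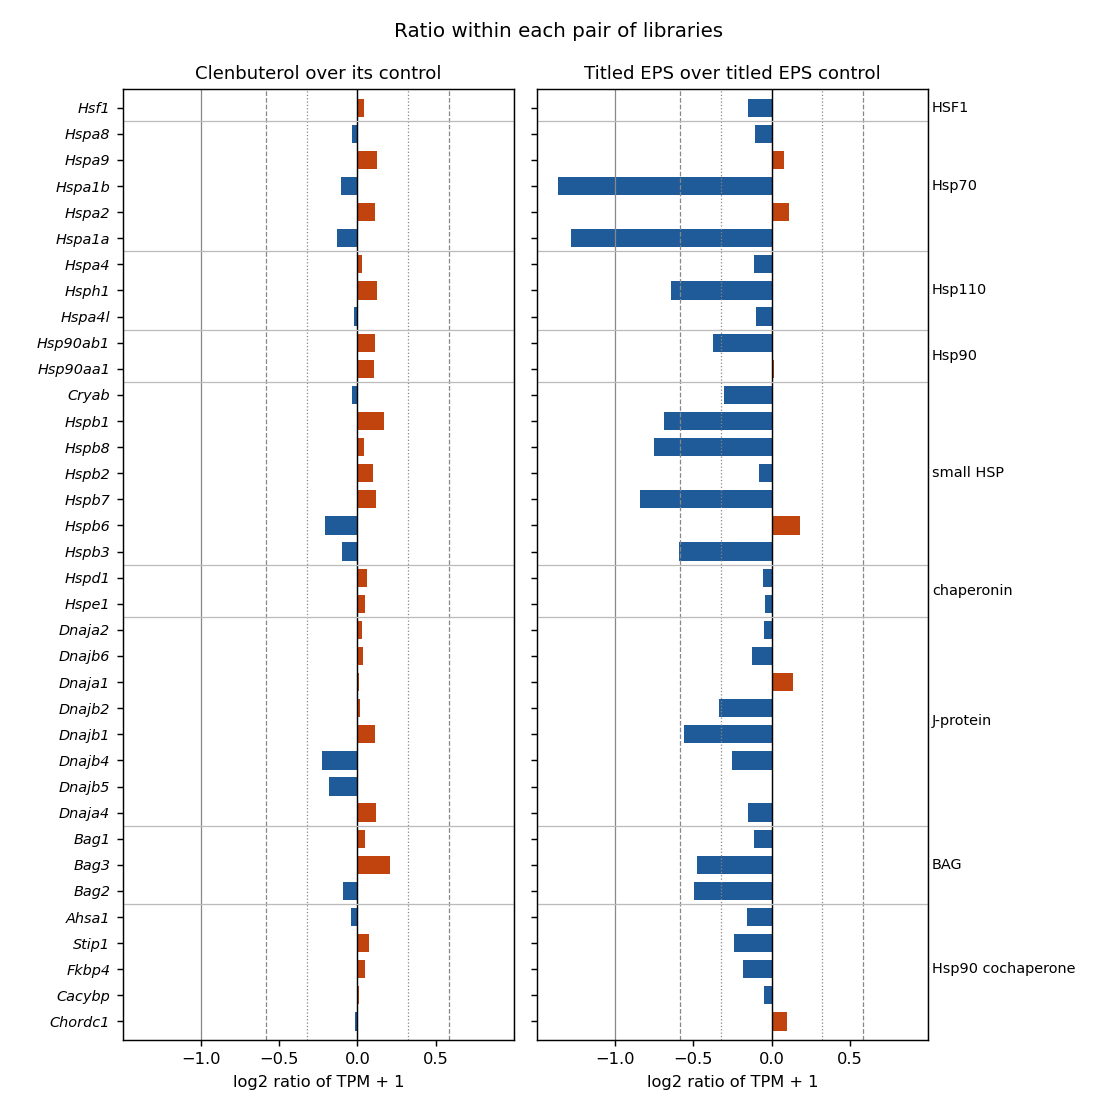
Log2 ratio of TPM plus 1 for each of the 36 genes, clenbuterol over its control on the left and titled EPS over titled EPS control on the right. Dotted, dashed and solid grey lines mark log2 ratios of 0.32 (a ratio of 5 to 4), 1.5-fold and 2-fold. No bar crosses the dotted line on the left, while 12 bars cross it on the right, all to the lower side.

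**Figure D4:**
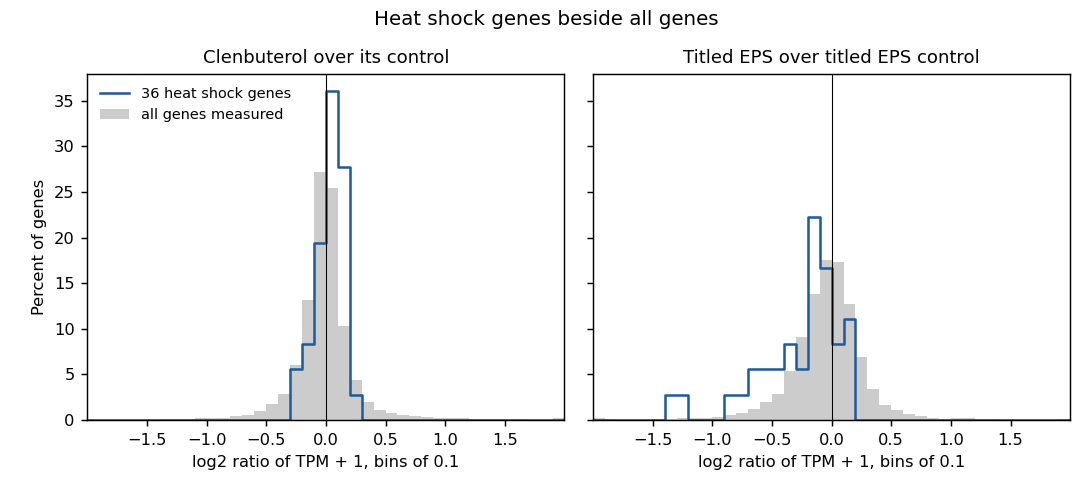
Percent of genes in bins of 0.1 of the log2 ratio of TPM plus 1, for all genes measured (grey, 13788 on the left and 13828 on the right, values beyond 2 placed in the end bins) and for the 36 heat shock genes (blue line). The blue line on the right has a tail to the lower side that ends at −1.37.

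The inducible Hsp70 genes had the lowest ratios. Hspa1b (chr17:34956429-34959238, mm10) had 21.1 TPM in the library titled EPS and 55.95 TPM in the library titled EPS control, and 35.6 TPM with clenbuterol against 38.3 TPM in the control of clenbuterol. Its neighbour Hspa1a (chr17:34969359-34972156) had 9.43 TPM in the library titled EPS and 24.3 TPM in the library titled EPS control, and 16.3 TPM with clenbuterol against 17.9 TPM in the control of clenbuterol. For both genes the library titled EPS was the lowest and the library titled EPS control the highest of the 4, with the clenbuterol pair between them. Hspa1b was 2.58-fold lower by title in CPM (2.39 to 2.79) and Hspa1a was 2.51-fold lower (2.24 to 2.83). Bulk RNA cannot tell fewer cells with a transcript from less of it per cell.

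Hspa1a and Hspa1b are uncertain as separate genes. Their open reading frames in GENCODE M21 transcripts shared 99.4% of aligned positions, with an identical run of 638 bases, so reads can be split between them. Hspa1b held between 68.3% and 69.8% of their joint counts in all 4 libraries. Their summed count was 1338 for the library titled EPS, against 3094 for the library titled EPS control, and their sum was 2.56-fold lower by title in CPM (2.40 to 2.73).

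The other Hsp70 genes differed far less. Hspa8, which encodes the constitutive Hsc70, had 1503 TPM in the library titled EPS and 1621 TPM in the library titled EPS control, and 1860.4 TPM with clenbuterol against 1904 TPM in the control of clenbuterol. Both libraries of the EPS pair were below both of the clenbuterol pair, and within the EPS pair Hspa8 was 1.05-fold lower by title in CPM (1.04 to 1.07). Hspa2 had 28.0 TPM in the library titled EPS and 25.8 TPM in the library titled EPS control, and 46.7 TPM with clenbuterol against 43.1 TPM in the control of clenbuterol, and was 1.11-fold higher by title in CPM (1.02 to 1.22). Hspa9 had 477 TPM in the library titled EPS and 452 TPM in the library titled EPS control, a log2 ratio of 0.08.

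Among the small heat shock proteins 4 of 7 were lower by at least 1.5-fold by title, beside 4.24% of all genes. The median of the 7 log2 ratios was −0.59, the lowest of the roles with more than 1 gene. Hspb7 (chr4:141420779-141425310), a muscle protein that binds filamin C, had 45.2 TPM in the library titled EPS and 81.7 TPM in the library titled EPS control, and 59.5 TPM with clenbuterol against 54.6 TPM in the control of clenbuterol. Hspb8 (chr5:116408491-116422864), the partner of BAG3 in selective autophagy, had 285 TPM in the library titled EPS and 481 TPM in the library titled EPS control, and 482 TPM with clenbuterol against 468 TPM in the control of clenbuterol. For Hspb8 the library titled EPS alone stood low, whereas Hspb7 was lowest there and highest in the library titled EPS control. Hspb7 was 1.76-fold lower by title in CPM (1.66 to 1.86) and Hspb8 was 1.64-fold lower (1.60 to 1.69).

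Hspb1 (chr5:135887919-135889563), which binds actin filaments and filamin, was the most abundant of these 4. It had 693 TPM in the library titled EPS and 1116 TPM in the library titled EPS control, and 1489 TPM with clenbuterol against 1320 TPM in the control of clenbuterol. The EPS pair lay below the clenbuterol pair, and the library titled EPS was lowest (1.57-fold lower by title in CPM, 1.53 to 1.61). Hspb3 (chr13:113662896-113663676), a muscle form that assembles with Hspb2, had 8.97 TPM in the library titled EPS and 14.0 TPM in the library titled EPS control, and 13.5 TPM with clenbuterol against 14.5 TPM in the control of clenbuterol. It rested on 110 and 151 counts in the EPS pair, so its interval was wide (1.52-fold lower by title in CPM, 1.18 to 1.96). Its log2 ratio of −0.59 only just passed 1.5-fold, and it did not with a pseudocount of 5 (−0.44), in FPKM (−0.47) or in CPM plus 1 with each scaling (−0.48 to −0.46), which leaves 3 of the 7 past that size.

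Cryab encodes αB-crystallin, which binds desmin, and was among the most abundant of all 36 genes. It had 1202 TPM in the library titled EPS and 1484 TPM in the library titled EPS control, and 2021 TPM with clenbuterol against 2068 TPM in the control of clenbuterol. The EPS pair was again below the clenbuterol pair, and Cryab was 1.23-fold lower by title in CPM (1.21 to 1.26), at a log2 ratio of −0.30, just short of 0.32 in size. In the deposited coordinates the 1283 bases from start to end of Hspb2 lie wholly within the span of Cryab, on the opposite strand. Such spans do not show whether exons overlap, and the sources do not say whether counting used strand. It is therefore not known whether reads of Hspb2 were kept apart from reads of Cryab. In the library titled EPS, Cryab had 18397 counts against 1518 for Hspb2. Hspb2 had 119 TPM in the library titled EPS and 126 TPM in the library titled EPS control (log2 ratio −0.08). Hspb6 had 26.6 TPM in the library titled EPS and 23.3 TPM in the library titled EPS control, and 20.3 TPM with clenbuterol against 23.6 TPM in the control of clenbuterol. At 0.18 it had the highest log2 ratio of the 36 by title, and it was 1.17-fold higher in CPM (1.03 to 1.33).

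Of the Hsp110 genes, Hsph1 (chr5:149616843-149636498) differed from its relatives in size. Its level was 76.5 TPM in the library titled EPS and 119.8 TPM in the library titled EPS control, and 120.7 TPM with clenbuterol against 110.4 TPM in the control of clenbuterol. The library titled EPS alone stood low (1.53-fold lower by title in CPM, 1.47 to 1.59). In FPKM its log2 ratio was −0.57, short of 1.5-fold. Hspa4l had 68.1 TPM in the library titled EPS and 72.9 TPM in the library titled EPS control, and 81.7 TPM with clenbuterol against 82.9 TPM in the control of clenbuterol (1.05-fold lower by title in CPM, 1.01 to 1.09). Hspa4 had a log2 ratio of −0.11, close to the −0.10 of Hspa4l.

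The Hsp90 genes also differed from each other. Hsp90ab1 had 1806 TPM in the library titled EPS and 2344 TPM in the library titled EPS control, and was 1.27-fold lower by title in CPM (1.253 to 1.278). Its log2 ratio of −0.38 passed 0.32 in size, but not in FPKM (−0.3153) or in CPM with library totals (−0.3163). The library titled EPS was the lowest of the 4, the other 3 lying between 2262 and 2447 TPM. Hsp90aa1 had 558 TPM in the library titled EPS and 552 TPM in the library titled EPS control (1.04-fold higher in CPM, 1.02 to 1.06). The coding sequences of Hsp90aa1 and Hsp90ab1 shared 75.7% of aligned positions, with no identical run beyond 33 bases.

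Among 8 J-proteins, Dnajb1 and Dnajb2 were lower by 0.32 by title, beside 12.6% of all genes. Dnajb1, the inducible Hsp40 that works with Hspa1a and Hspa8, had 48.3 TPM in the library titled EPS and 71.7 TPM in the library titled EPS control, and 54.2 TPM with clenbuterol against 50.1 TPM in the control of clenbuterol. Here the library titled EPS control alone stood high, 1.45-fold above the library titled EPS in CPM (1.37 to 1.53). Dnajb2, which steers clients to the proteasome in neurons, had 61.2 TPM in the library titled EPS and 77.5 TPM in the library titled EPS control (log2 ratio −0.34). Dnajb2 fell short of 0.32 in size with a pseudocount of 5 (−0.317), in FPKM (−0.27) and in CPM with each scaling (−0.31 to −0.29). The remaining 6 ran from −0.25 for Dnajb4 to 0.14 for Dnaja1, with Dnajb5 at 0.01. Dnaja1, a farnesylated partner of Hsc70, had 134.1 TPM in the library titled EPS and 121.7 TPM in the library titled EPS control, and 150.7 TPM with clenbuterol against 149.4 TPM in the control of clenbuterol (1.13-fold higher by title in CPM, 1.09 to 1.17). Dnajb6, mutated in a human limb-girdle muscular dystrophy, stood at −0.13, and Dnaja2 and Dnaja4 stood at −0.05 and −0.15.

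All 3 BAG genes had ratios below 0 by title, beside 54.6% of all genes. Bag2 and Bag3 were lower by 0.32, beside 12.6% of all genes. Bag3 had 69.9 TPM in the library titled EPS and 97.8 TPM in the library titled EPS control, and was 1.36-fold lower by title in CPM (1.30 to 1.43). Bag2, which restrains the ubiquitin ligase CHIP, had 48.6 TPM in the library titled EPS and 68.9 TPM in the library titled EPS control, and 41.3 TPM with clenbuterol against 44.2 TPM in the control of clenbuterol. The library titled EPS control was thus the high one for Bag2 (1.38-fold, 1.29 to 1.48), and the library titled EPS lay near the clenbuterol pair. Bag1, which links Hsp70 to the proteasome, was the most abundant of the 3. It had 347 TPM in the library titled EPS and 375 TPM in the library titled EPS control, and 465 TPM with clenbuterol against 449 TPM in the control of clenbuterol (log2 ratio −0.11 by title, 1.05-fold lower in CPM, 1.02 to 1.09).

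The 5 Hsp90 cochaperones did not reach 0.32 in size, beside 12.6% of all genes lower and 7.51% higher by that size. Stip1 was the lowest, with 169.7 TPM in the library titled EPS and 200.8 TPM in the library titled EPS control, and 189.9 TPM with clenbuterol against 180.3 TPM in the control of clenbuterol (1.15-fold lower by title in CPM, 1.11 to 1.20). Fkbp4, an immunophilin of steroid receptor complexes, and Ahsa1 had log2 ratios of −0.18 and −0.16. Cacybp, which binds calcyclin, stood at −0.05, between these and the highest. That was Chordc1, which encodes an Hsp90 binding protein, with 55.0 TPM in the library titled EPS and 51.3 TPM in the library titled EPS control, and 53.5 TPM with clenbuterol against 54.0 TPM in the control of clenbuterol (log2 ratio 0.10 by title, 1.10-fold higher in CPM, 1.03 to 1.18). Hsf1 had 48.1 TPM in the library titled EPS and 53.7 TPM in the library titled EPS control (log2 ratio −0.15, 1.08-fold lower in CPM, 1.01 to 1.15).

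The mitochondrial chaperonin genes had nearly equal ratios. Hspd1 had 219 TPM in the library titled EPS and 228 TPM in the library titled EPS control, and 163 TPM with clenbuterol against 157 TPM in the control of clenbuterol. Hspe1 had 186 TPM in the library titled EPS and 192 TPM in the library titled EPS control, and 140.2 TPM with clenbuterol against 135 TPM in the control of clenbuterol. Both stood at a log2 ratio of −0.05 by title, and both counting intervals in CPM held 1 (0.959 to 1.02 for Hspd1 and 0.936 to 1.06 for Hspe1). Both were higher in the EPS pair than in the clenbuterol pair whatever the title. The spans of the 2 genes share 96 bases in the deposited coordinates, on opposite strands, and it is not known whether their reads were kept apart there.

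Matches to the heat shock element were found among genes at both ends of the order. Of the 11 genes lower by 0.32 by title that have a promoter window, 7 held a 2-unit match and 1 a 3-unit match, and of the other 18 genes 9 held a 2-unit match and 4 a 3-unit match. The median log2 ratio was −0.22 over the 16 genes with a 2-unit match and −0.11 over the 13 without. These genes are not all independent. Hspa1a and Hspa1b, nearly the same in window and reads, are among the 7, and Hspd1 and Hspe1, which share their match, are among the 4. The difference in medians was not tested.

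Across the 4 libraries, the library titled EPS was the lowest for 25 of the 36 genes, beside 26.7% of all 14213 genes with 1 TPM in any library. It was below each of the other 3 by at least 0.32 for 7 genes (Hspa1a, Hspa1b, Hsph1, Hsp90ab1, Hspb1, Hspb3 and Hspb8), beside 4.39% of all genes. By 1.5-fold it was below the others for Hspa1a, Hspa1b, Hspb1 and Hspb8, beside 1.22% of all genes. The library titled EPS control was the highest for 14 genes, beside 32.0% of all genes, and above each of the other 3 by at least 0.32 for 5 (Hspa1a, Hspa1b, Hspb7, Dnajb1 and Bag2), beside 4.36% of all genes. Hspa1a and Hspa1b are in both sets, and since reads can be split between them they are not independent genes in these counts. None of the 36 genes set the clenbuterol library apart by 0.32, beside 2.35% of all genes above and 2.57% below.

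Some genes of the list also differed between the pairs whatever the treatment, at shares near those over all genes. This comparison was chosen after the values were seen. Both libraries of the EPS pair were higher by at least 0.32 than both of the clenbuterol pair for Hspd1 and Hspe1, beside 7.35% of all genes. Hspd1 averaged 224 TPM in the EPS pair and 160.0 TPM in the clenbuterol pair, and Hspe1 averaged 189 TPM in the EPS pair and 138 TPM in the clenbuterol pair. Mitochondrial Hspa9 lay the same way, at 464 TPM in the EPS pair and 349 TPM in the clenbuterol pair. Both libraries of the EPS pair were lower by at least 0.32 for Hspa2 and Cryab, beside 5.07% of all genes. Hspa2 averaged 26.9 TPM in the EPS pair and 44.9 TPM in the clenbuterol pair, and Cryab 1343 TPM in the EPS pair and 2044 TPM in the clenbuterol pair. Each pair pools a treated and a control library, and the treatments cannot be told apart from other differences between the pairs.

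Myotube markers also differed within the EPS pair. Of 10 markers, 9 had ratios below 0 by title, beside 54.6% of all genes, at a median log2 ratio of −0.33. By 0.32, 5 were lower, beside 12.6% of all genes. The summed level was 20622 TPM in the library titled EPS and 24646 TPM in the library titled EPS control. Most of that gap lay in Acta1, with 5723 TPM in the library titled EPS and 9090 TPM in the library titled EPS control. Mylpf went the other way, with 8770 TPM in the library titled EPS and 8328 TPM in the library titled EPS control. Of the 7 small heat shock proteins, 6 had ratios below 0, beside the same 54.6% of all genes. Among them Hspb2 was near 0 at −0.08, and Hspb6 lay on the other side at 0.18. The part of myotube content in the chaperone differences was not tested.

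Other chaperone genes were set beside these in 6 lists with 71 entries, chosen with earlier results of these data known. Over all genes, 12.6% were lower and 7.51% higher by 0.32 by title. The 8 subunits of the cytosolic chaperonin TRiC, which folds actin and tubulin, had a median log2 ratio of 0.05 by title, with ratios between −0.05 and 0.12 and none past 0.32. The 6 prefoldin subunits, which deliver actin and tubulin to TRiC, had a median of 0.17, and none passed 0.32. Of 17 other Hsp90 cochaperones 2 were lower and 0 higher by 0.32, with a median of −0.01, so the share of lower genes was near that over all genes. Those 2 were Itgb1bp2, the muscle cochaperone melusin (log2 ratio −0.48), and Unc45b, the myosin chaperone of muscle (−0.33). Ttc4 had the highest ratio there, 0.27.

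Of 21 measured other Hsp70 cochaperones and J-proteins, 1 was lower by 0.32, Dnajb12 at −0.33, beside 12.6% of all genes. The median was 0.02. Among 12 mitochondrial chaperones and proteases, Dnajc15 was higher (0.50) and the protease subunit gene Afg3l2 lower (−0.34), with a median of 0.01. Of 5 further measured genes, grouped as other heat shock factors, 1 was lower by 0.32. That was Hsf4, a heat shock factor best known from the lens, with 10.1 TPM in the library titled EPS and 15.9 TPM in the library titled EPS control (−0.61). Hsf2 stood at −0.07 and Hspb11, an intraflagellar transport gene in spite of its symbol, at 0.23. With clenbuterol none of the measured genes in the 6 lists passed 0.32, beside 5.74% of all genes higher and 6.53% lower. The list medians ran from −0.04 to 0.00, and the highest ratio was that of Dnajc21 at 0.30.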

How the data were processed

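Per the submitters' processing notes, reads were aligned with HISAT2 to mm10. The program behind the abundances, its annotation and its use of strand are not stated there. The authors deposited 1 joint table of estimated counts, FPKM and TPM per gene, and per library a table of coverage (a signal, not used here), FPKM and TPM with gene coordinates. TPM of the 36 genes agreed between the deposited tables to 0.000107 or better.

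The main value was log2 of the ratio of TPM plus 1, over genes with at least 1 TPM in either library of a pair. CPM was computed from the estimated counts with TMM factors (edgeR 4.0.16, R 4.3.3), with exact Clopper-Pearson 95% intervals. These were tried only on simulated Poisson counts, which hold counting error alone and no reads shared between genes. Differences of at least 0.32 on the log2 scale, 1.5-fold and 2-fold are described beside the share of all genes that reached them. DESeq2 1.42.0 gave alternative size factors. Python 3.11.15, pandas 2.3.3, scipy 1.17.1, biopython 1.88 and matplotlib 3.10.9 were used. Coding sequences were the longest open reading frames of GENCODE M21 transcripts.

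The genes and lists were chosen with earlier results of these data known. Full values are given for genes past 1.5-fold, the 5 most abundant, Hsf1 and the extremes of each role; up to 2 highest and 2 lowest genes come from each other list. Protein identity was not analysed here.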

Additional observations from a re-analysis of the deposited data

How the results depend on the processing

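The alternatives were pseudocounts of 0.1 and 5, no filter on low values, FPKM, CPM with TMM factors, DESeq2 size factors or library totals, and Hspa1a and Hspa1b summed. Under these, the median log2 ratio of the list ran from 0.02 to 0.05 with clenbuterol and from −0.16 to −0.09 by title in the EPS pair. The number of genes past 0.32 with clenbuterol was 0 under each of them. In the EPS pair between 10 and 12 genes were lower by 0.32 and between 5 and 7 by 1.5-fold. Those that dropped below 0.32 were Dnajb2 and, in FPKM (−0.3153) and CPM with library totals (−0.3163), Hsp90ab1. Below 1.5-fold dropped Hspb3 and, in FPKM (−0.57), Hsph1. The 2 genes lower by 2-fold became 1 when Hspa1a and Hspa1b were summed, since they are those 2 genes. By title, 29 genes were below 0 in TPM and 25 in FPKM and in CPM with library totals. No gene past 0.32 changed sign, and the 5 genes (clenbuterol) and 4 genes (EPS pair) that did had ratios no further from 0 than 0.041 and 0.053. Counting intervals cover counting error only, and 1 library per group limits every value. No paired analysis was possible because each group held 1 library.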
